A study of Danio rerio with 4 samples.

Results

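The control library of this study holds RNA from pharyngeal arch cells of zebrafish (Danio rerio) embryos that carried the sox10:Gal4 driver and no UAS:Nr2f5 transgene. It was chosen by its genotype label and is 1 of 4 libraries. The cells came from 69 embryos pooled at the 36 hours post-fertilization (hpf) stage, and 86517 cells were sorted. Sorting kept cells positive for fli1a:GFP, which marks arch neural crest and blood vessels, and for sox10:DsRed, which marks the neural crest lineage. Gal4 is a yeast activator that switches on genes behind a UAS element, here under the sox10 promoter. Embryos were raised at 28.5 °C, moved to 22 °C at 27 hpf, and genotyped from fin biopsies taken at 24 hpf.

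The 3 other libraries are given only beside the control, as a range or as single values. They are 1 library of sox10:Gal4; UAS:Nr2f5 embryos (84 embryos, 56866 cells), raised and genotyped in the same way, and 2 libraries of nr2f2; nr2f5 double mutants, recognised by ocular coloboma, a gap in the eye. All 4 libraries came from embryos raised with the same temperature shift, and were sorted for the same transgenes at the same stage. The control group has 1 library, so that no difference from it was tested and no p-value is given. Levels carry exact Poisson 95% intervals and shares carry exact Clopper-Pearson 95% intervals, both for counting error only.

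Cranial neural crest cells leave the dorsal neural tube, fill the pharyngeal arches and form the cartilage and bone of the jaw. Within an arch, endothelin-1 and Bmp signals give cells lower-jaw identity through dlx, hand2 and barx1 genes, while Jagged-Notch signalling and Nr2f receptors act in upper-jaw cells. Hox genes tell the posterior arches from the first arch, whose crest lacks them. Many zebrafish genes have a pair of copies, named a and b, that stem from a genome duplication in an ancestor of teleost fish.

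Levels are given in RPM, reads per 1000000, and the 1000000 was assumed rather than stated. In the control 1 read was worth 0.0334 RPM, and 4467227 reads were assigned to genes. The other libraries had 1498321 to 5286228 gene reads. Values were not divided by transcript length, because no lengths were at hand. A longer transcript yields more reads, so every ranking of genes below is a ranking by reads and not by number of transcripts. The 2 mutant libraries are the only replicates in the series. Between them, genes with a mean of 20 to 100 RPM differed by a median of 1.12-fold and genes with a mean of 1 to 5 RPM by 1.41-fold. The 90th percentiles were 1.35-fold and 2.53-fold.

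Many of the genes with most reads in the control serve protein synthesis, protein folding or the cytoskeleton. Of 31953 genes, 11485 (35.9%) reached 1 RPM, 3027 reached 10 RPM, 174 reached 100 RPM and 5 reached 1000 RPM. Another 11777 genes were listed at 0. The median of the genes at 1 RPM or more was 4.41 RPM. The 10 genes with most reads held 8.12% of all gene reads, the first 100 held 22.4% and the first 1000 held 54.9%, and 764 genes together held 50% of them.

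The gene models AC024175.4 (2125 RPM) and AC024175.17 (1899 RPM), which the reference tables do not annotate, received most reads. They were followed by malat1, a nuclear long non-coding RNA, at 1523 RPM. The elongation factor eef1a1l1, which brings tRNAs to the ribosome, stood at 1508 RPM (1494 to 1522) in the control and 1342 in the library labelled UAS:Nr2f5, and 1617 and 1867 in the mutants. The translocation factor eef2b stood at 1363 RPM in the control and at 1048, 1368 and 1700 RPM in the others. For both factors the control value lay inside the range of the other libraries.

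The chaperones hspa8 (891 RPM) and hsp90ab1 (784 RPM), which fold proteins in the cytosol, came next. The chromatin proteins hmga1a and hmgn2 stood at 683 and 427 RPM, and the beta-actins actb2 and actb1 at 655 and 639 RPM. Of the 80 ribosomal protein genes listed, 78 (97.5%) reached 1 RPM, against 35.9% of all genes. Together the 80 held 10446 RPM, or 7.002% of all gene reads. The range of that sum in the other libraries was 9866 to 12376 RPM. Translation factors added 5151 RPM (3.45%) and the 13 listed genes of the mitochondrial genome 1025 RPM (0.687%). The unannotated gene models named above were not counted among these 13. Nuclear genes of oxidative phosphorylation added 1102 RPM (0.738%) and proteasome genes 1161 RPM (0.778%).

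Among the 30 genes with most reads, 2 encode extracellular matrix proteins, the collagen chain col1a1a (334 RPM) and tenascin C (tnc, 299.5 RPM). The genes krt4, ttnb and atp2a1, belong to skin or muscle. They were also the 3 of the 30 with the widest spread over the other libraries. For krt4, a keratin of surface epithelium, the control had 504 RPM, the library labelled UAS:Nr2f5 1508 and the mutants 54.2 and 25.1. For ttnb, a giant muscle protein, the values were 317, 914, 14.1 and 8.74 RPM in the same order. The control lay between the library labelled UAS:Nr2f5 and the mutants for both genes.

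**Figure D1:**
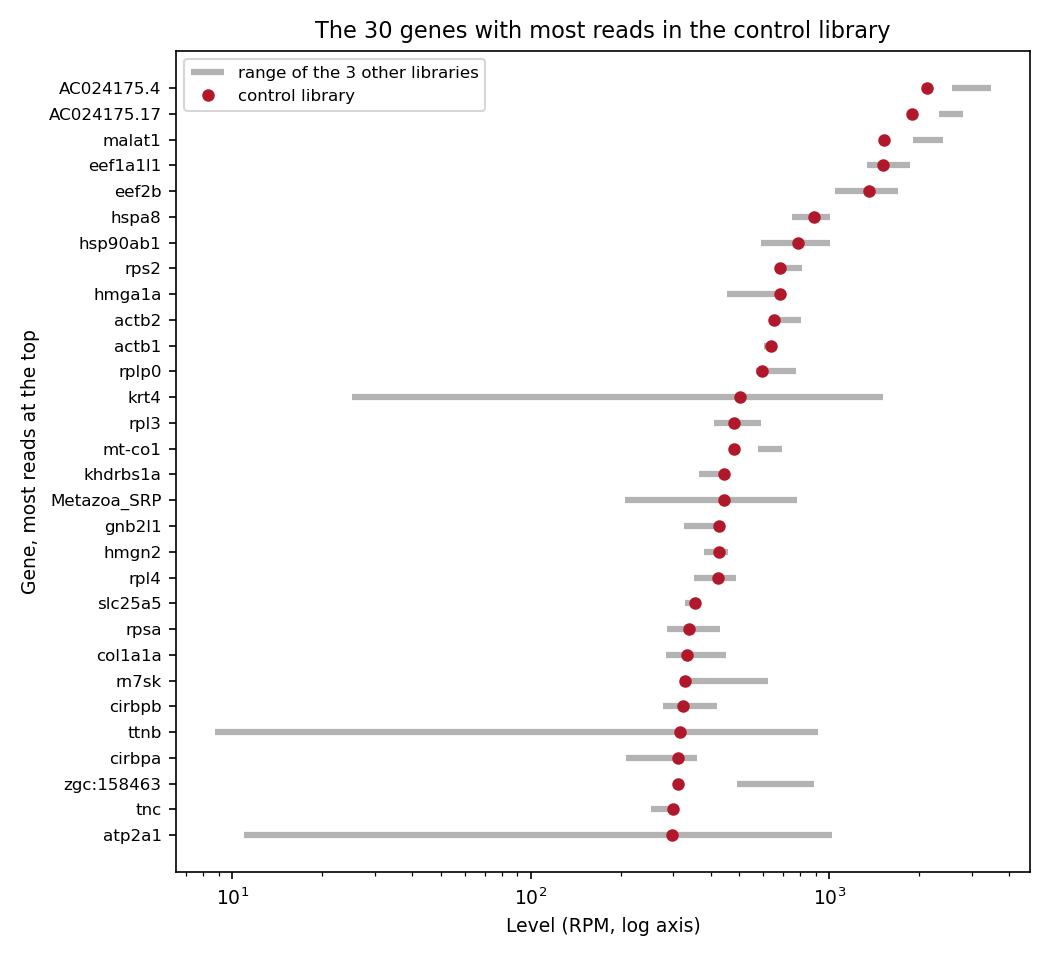
The 30 genes with most reads in the control library (vertical axis) against their level in RPM (horizontal log axis). Red points are the control and grey bars span the 3 other libraries, and the bars of krt4, ttnb and atp2a1 are the widest, with krt4 from 25.1 to 1508 RPM.

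Markers of arch neural crest mesenchyme were present almost in full. Of 15 such genes, 14 reached 1 RPM against 35.9% of all genes, with a sum of 436 RPM (272 to 605 in the other libraries) and a median of 26.3 RPM. The growth factor receptor pdgfra stood at 100.9 RPM (97.3 to 105), against 66.5 in the library labelled UAS:Nr2f5 and 130 and 137 in the mutants. The sorting gene fli1a, an ETS factor, stood at 38.3 RPM in the control and at 18.0, 51.5 and 48.1 RPM in the others. The mesenchymal factors prrx1b (35.7 RPM), prrx1a (27.2 RPM) and twist1a (27.8 RPM) were close to it. The exception was dlx2b at 0.134 RPM.

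Genes of earlier, migrating crest were also read, at a lower sum of 82.7 RPM (71.2 to 117). Of 10, 9 (90%) reached 1 RPM, against 35.9% of all genes. The sum was led by sox9b (25.5 RPM) and snai2 (19.9 RPM). The genes sox9b, msxb and pax3a were also counted in the skeletal, lower-arch and anterior identity lists, in that order. The crest gene crestin had no matching symbol, and tfap2e had 2.04 RPM. The sorting gene sox10, which is switched off in arch mesenchyme and stays on in glial and pigment precursors, had 8.72 RPM (7.69 to 9.84) in the control. It had 5.73 RPM in the library labelled UAS:Nr2f5 and 17.4 and 24.9 RPM in the mutants. The early crest factor foxd3 had 0.570 RPM.

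Markers of other cell types were measured in the same library. In bulk RNA, fewer cells of a type and less RNA per cell cannot be told apart. Muscle markers summed to 2000.3 RPM (62.2 to 6709 in the other libraries). Of 20, 16 (80%) reached 1 RPM, against 35.9% of all genes. The contractile genes led that list, while the myogenic factors myod1, myf5 and myog stood at 0.835, 0.267 and 0.367 RPM. Epidermal markers summed to 899 RPM (169 to 2498), and all 14 reached 1 RPM. Of that sum krt4 held 56.1%. Unlike krt4, the keratin krt8 was higher in both mutants, at 131 and 129 RPM against 98.7 RPM here. With the UAS:Nr2f5 label krt8 had 89.0 RPM. The low end of the epidermal range was mutant 2, where krt8 gave 129 of the 169 RPM and krt4 25.1 RPM.

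Red blood cell markers summed to 501 RPM (55.9 to 412), a value above the range of the other libraries. Their leading gene was the embryonic globin hbae3, with 195 RPM in the control and 156 in the library labelled UAS:Nr2f5, and 47.2 and 17.4 in the mutants. The globin genes are near-identical copies whose reads may have been split between them. Endothelial markers, the cells that fli1a:GFP also marks, summed to 28.3 RPM (11.7 to 48.1). Of 20 endothelial markers, 9 (45%) reached 1 RPM, against 35.9% of all genes. The vessel receptor kdrl had 5.81 RPM, the vessel cadherin cdh5 3.71 RPM, and lyve1b was listed at 0. White blood cell markers summed to 31.1 RPM (6.35 to 40.8).

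Neuronal markers reached 171 RPM (66.2 to 196), led by tubb5 (74.2 RPM), a tubulin, and elavl3 (44.0 RPM), an RNA-binding protein of new neurons. Glial markers summed to 48.6 RPM (8.24 to 47.4). This came mostly from plp1a, gfap and fabp7a, the 3 of 10 markers (30%) that reached 1 RPM, against 35.9% of all genes. The myelin genes mbpa and cldnk were listed at 0. Pigment cell markers summed to 22.3 RPM (10.2 to 58.6) and ear, eye and lens markers to 37.1 RPM (13.8 to 179). Of 13 pigment markers, 5 (38.5%) reached 1 RPM, near the 35.9% of all genes, and gch2 held 46.6% of their sum. Endoderm and pouch markers had the lowest sum, 7.71 RPM (4.66 to 10.7). Of 12, 1 (8.33%) reached 1 RPM, against 35.9% of all genes. This marker was pax9 (3.91 RPM), and pax1a, pax1b and sox17 were listed at 0. The part of these other cell types in the levels of shared genes was not tested.

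**Figure D2:**
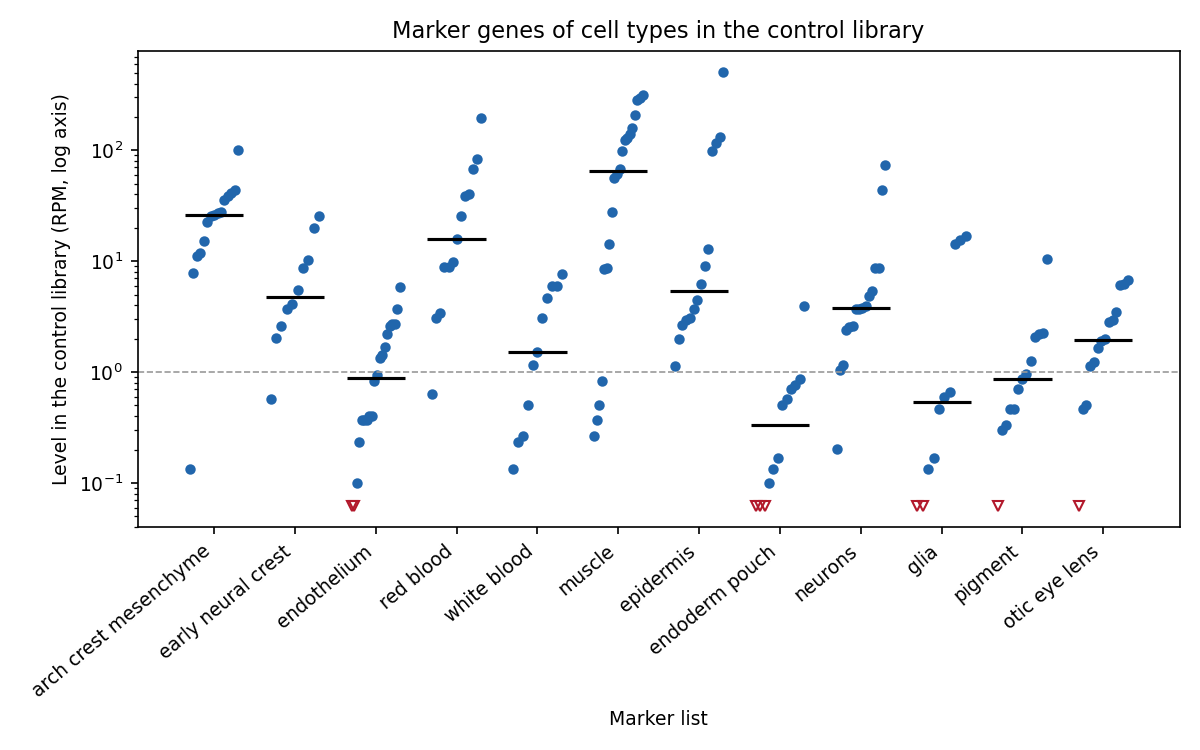
Level in the control library (vertical log axis, RPM) of each marker gene in 12 cell type lists (horizontal axis). Points are genes, black lines are list medians, the dashed line is 1 RPM and open triangles are genes with fewer than 3 reads, which 3 of the 12 endoderm and pouch markers were.

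Transcription factors took 3.68% of the gene reads. Of 717 factor genes, 447 (62.3%) reached 1 RPM, against 35.9% of all genes, with a median of 2.00 RPM over all 717. The gene with most reads was her6, a Hairy-related repressor and Notch target, with 163 RPM (159 to 168) in the control and 107 in the library labelled UAS:Nr2f5, and 220 and 245 in the mutants. The control value lay between them. The immediate early genes junbb (146 RPM), fosab (141 RPM), jun (125 RPM) and egr1 (49.2 RPM) were among the first 25. Dissociation of tissue is known to induce such genes, and its part in these levels was not tested.

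Hox cofactors and broadly expressed factors followed. The TALE factor pbx4, a Hox partner, had 108 RPM in the control and 88.3, 105 and 95.4 RPM in the others. Its partners meis2a and meis1b had 53.9 and 50.2 RPM. The zinc-finger homeobox genes zfhx4 and zfhx3 had 107 and 81.7 RPM, the forkhead gene foxp4 103 RPM, and the E-proteins tcf3b and tcf12, partners of Twist and other bHLH factors, 103 and 42.2 RPM. Of the SoxC genes, sox11b had 79.3 RPM and sox11a 53.0 RPM. For sox11a, sox11b and zfhx3 the control value was above each of the other libraries (at most 40.6, 53.3 and 63.3 RPM).

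Crest and skeletal factors made up much of the rest of the first 25. The chondrogenic factors sox5 and sox9a had 98.7 and 44.1 RPM. The forkhead gene foxc1b had 42.4 RPM, nr2f1a 46.8 RPM, nr2f2 41.4 RPM and fli1a 38.3 RPM.

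**Figure D3:**
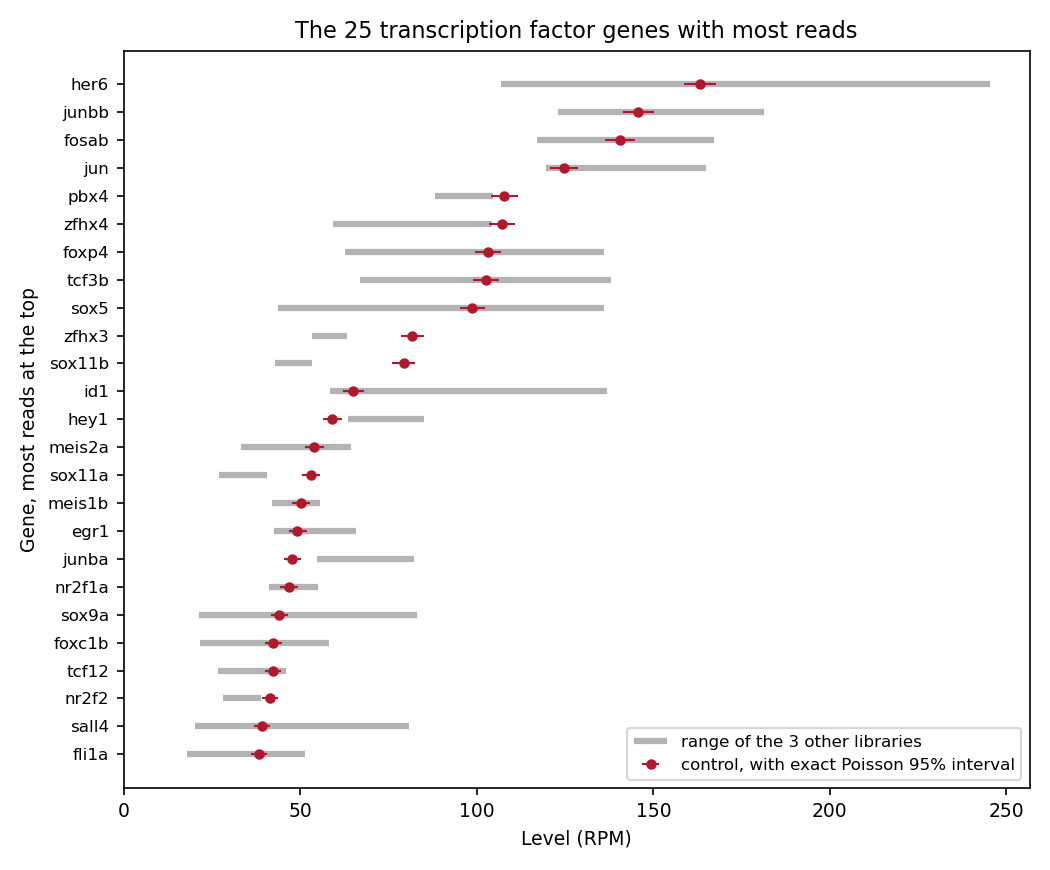
Level in RPM (horizontal axis) of the 25 transcription factor genes with most reads in the control library (vertical axis). Red points are the control with exact Poisson 95% intervals and grey bars span the 3 other libraries, and her6 stands first at 163 RPM.

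Genes of upper-arch identity were all present. Each of the 16 in the list reached 1 RPM, against 35.9% of all genes. Their sum was 729 RPM (627 to 926 in the other libraries) and their median 29.4 RPM. The list includes Notch receptors and targets that are also counted under Notch signalling, and her6 alone held 22.4% of the sum. The 6 genes of the nr2f family, orphan nuclear receptors, all reached 1 RPM. In the control nr2f1a had 46.8 RPM (44.4 to 49.3), nr2f2 41.4, nr2f1b 29.9, nr2f5 28.8, nr2f6a 16.1 and nr2f6b 11.1 RPM. The intervals of nr2f1b and nr2f5 overlapped. Across the libraries nr2f1a varied little, with 41.3, 54.6 and 55.1 RPM in the library labelled UAS:Nr2f5 and the mutants. For nr2f2 the control had 41.4 RPM and the others 28.1, 38.9 and 30.9 RPM, all below it. For nr2f5 the control had 28.8 RPM (26.9 to 30.8) and the others 30.3, 12.2 and 14.7 RPM. The library labelled UAS:Nr2f5 thus had nr2f5 reads close to the control, without a clear rise. Whether reads of the transgene would be counted in this gene was not tested. The library is called by its label throughout.

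The Notch ligand jag1b, required for upper-jaw identity, had 28.9 RPM (27.0 to 30.9) in the control and 30.6, 35.3 and 40.6 RPM in the others. The receptors notch3 and notch2 had 105 and 98.8 RPM, and the Notch target hey1 59.1 RPM. The POU factors pou3f3b and pou3f3a had 33.9 and 18.5 RPM, the eye-absent cofactor eya1 had 21.1 RPM, and the Bmp antagonist grem2b had the fewest reads in the list at 5.14 RPM.

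Of 24 lower-arch genes, 22 reached 1 RPM, against 35.9% of all genes. Their sum was 255 RPM (132 to 384) and their median 9.10 RPM. The sums and medians of the upper-arch and lower-arch lists depend on which genes were listed and do not weigh the identities against each other. The homeobox gene barx1, which promotes cartilage and represses joints in the zebrafish jaw, had 26.3 RPM (24.5 to 28.2) in the control and 5.63 in the library labelled UAS:Nr2f5, and 45.1 and 38.9 in the mutants. The bHLH factor hand2, of the ventral-most arch, had 15.2 RPM in the control and 3.46, 34.8 and 23.8 RPM in the others. For both genes the control lay between the library labelled UAS:Nr2f5 and the mutants. The joint gene nkx3.2 had 8.05 RPM and the homeobox gene gsc 7.91 RPM. The endothelin ligand edn1 was listed at 0, with an exact interval up to 0.123 RPM, while its receptor ednraa had 19.7 RPM.

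The dlx homeobox genes pattern the arch along its dorsal-ventral axis. All but dlx2b of the 8 reached 1 RPM (87.5%, against 35.9% of all genes). In the control dlx2a had 22.4 RPM (20.7 to 24.2), dlx5a 18.9, dlx4a 15.4, dlx3b 11.6, dlx1a 11.2, dlx4b 6.98 and dlx6a 4.27 RPM. The intervals of dlx3b and dlx1a overlapped. For dlx5a the other libraries had 2.37, 36.2 and 28.1 RPM, and the control lay between them. The dlx genes in the pairs below are neighbours, and in the reference table no protein-coding gene lies between the partners. The genes dlx2b and dlx4a are not in these pairs. In the pair dlx1a and dlx2a, dlx1a held 33.3% (30.4 to 36.3) of the reads of the pair, against 39.7%, 27.9% and 32.0% in the others. In the pair dlx5a and dlx6a, dlx5a held 81.5% (78.4 to 84.4), against 100% in the library labelled UAS:Nr2f5, where dlx6a was listed at 0, and 71.6% and 68.6% in the mutants. In dlx3b and dlx4b, dlx3b held 62.3% (58.2 to 66.4).

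Genes of frontonasal and anterior crest identity were fewer in reads. Of 15, 13 (86.7%) reached 1 RPM, against 35.9% of all genes, and the sum was 68.1 RPM (43.4 to 81.9). They include emx2 at 10.5 RPM (9.36 to 11.7) and alx4a, a factor of the midline face, at 10.1 RPM. The gene emx2 was also counted in the lower-arch list.

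Hox reads came mostly from anterior groups. Of 50 hox gene rows, 18 (36.0%) reached 1 RPM, near the 35.9% of all genes, and the sum was 89.6 RPM (47.8 to 80.5 in the other libraries), above their range. Paralogue groups 1 to 4 held 71.7% of it, group 3 alone 35.8% and group 2 alone 20.1%. Groups 5 to 8 held 13.1% and groups 9 to 13 held 15.2%. By cluster, hoxba held 48.9% and hoxcb 0.559%. Group 2 genes mark the second arch and arches behind it, and group 3 genes the posterior arches.

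The gene with most hox reads was hoxb3a, with 19.7 RPM (18.1 to 21.4) in the control and 18.4 in the library labelled UAS:Nr2f5, and 9.80 and 10.01 in the mutants. The next was hoxb2a, with 11.4 RPM in the control and 6.22, 10.3 and 9.75 RPM in the others. The posterior-arch gene hoxa3a had 8.25 RPM in the control, against 3.46, 2.98 and 2.47 RPM. The second-arch gene hoxa2b had 6.65 RPM, against 6.62, 9.57 and 5.16 RPM. For hoxb3a, hoxb2a and hoxa3a the control value was the highest of the 4. For hoxb3a, however, the value of the library labelled UAS:Nr2f5 lay inside the counting interval of the control. Of the trunk and tail groups 9 to 13, 2 of 25 rows reached 1 RPM, and hoxb9a led them at 4.04 RPM.

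Signalling genes were described by role, over 8 pathways. Of 59 receptor rows, 52 (88.1%) reached 1 RPM, against 35.9% of all genes, with a median of 14.03 RPM and 2 listed at 0. Of 48 ligand rows, 21 (43.8%) reached 1 RPM, with a median of 0.785 RPM and 10 listed at 0. Among effectors and targets 45 of 51 reached 1 RPM, and among secreted or membrane antagonists 11 of 19. In each of the 3 other libraries 21 ligand rows reached 1 RPM, while receptors came to 53, 53 and 50. Transcript length was not corrected for and may differ between ligands and receptors, and its part in this contrast was not tested.

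Notch was the pathway whose ligands had most reads. The 4 receptors held 335 RPM together, with notch3 at 105, notch2 at 98.8, notch1b at 70.5 and notch1a at 60.5 RPM. Of 9 ligand rows, 8 reached 1 RPM, led by jag1b (28.9 RPM) and the Delta genes dla (28.2), dlb (22.5) and dld (21.6 RPM). The Delta genes also act in newborn neurons. For dla the other libraries spanned 4.89 to 34.5 RPM and for dld 2.29 to 20.5 RPM, and the neuronal marker elavl3 spanned 5.12 to 63.7 RPM over the same libraries. The part of neurons in the Delta reads was not tested.

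In the Hedgehog pathway, which the crest receives from endoderm and brain, the receptors and co-receptors were read and the ligands hardly. The co-receptor boc had 76.9 RPM, cdon 57.8 RPM, the receptor ptch1, itself a pathway target, 46.7 RPM and the transducer smo 33.9 RPM. The ligand shha had 1.70 RPM (1.27 to 2.24), shhb 0.334 RPM and ihhb 0.100 RPM, and ihha and dhh were listed at 0. The transcription factors gli2a, gli2b, gli1 and gli3 had 26.5, 17.8, 15.3 and 7.91 RPM.

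Among Fgf genes the receptor fgfr2 had 107 RPM (103 to 111) in the control and 91.1, 124 and 119 RPM in the others. Next came fgfr4 at 41.6, fgfr1a at 31.7, fgfr3 at 14.9 and fgfr1b at 8.92 RPM. Of 8 ligands only fgf3 (4.91 RPM) and fgf10a (1.102 RPM) reached 1 RPM, while fgf8a had 0.835 RPM and fgf20a, fgf20b, fgf10b and fgf8b were listed at 0. All 10 effectors and feedback targets reached 1 RPM, led by the phosphatase dusp6 (39.6 RPM), the Spred gene spred2a (24.0 RPM) and the Sprouty gene spry2 (19.6 RPM).

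Bmp genes had low ligand and moderate receptor reads. The ligand bmp5 had 7.68 RPM, bmp2b 2.505 RPM and bmp4 2.07 RPM. The type I receptors bmpr1aa and bmpr1ab had 31.6 and 24.9 RPM and the type II receptors bmpr2b and bmpr2a 14.2 and 12.5 RPM. The target id1, an inhibitor of bHLH factors, had 65.0 RPM in the control and 58.6, 137 and 102 RPM in the others. Antagonists were led by the decoy receptor bambia (8.58 RPM) and nog2 (6.95 RPM).

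Of the endothelin genes, 1 receptor had most reads and no ligand with a matching symbol reached 1 RPM. The receptor ednraa had 19.7 RPM (18.2 to 21.4) in the control and 21.3, 19.1 and 20.5 RPM in the others, a narrow range. Its copy ednrab had 0.635 RPM. The receptors ednrba and ednrbb and the ligands edn1 and edn2 were listed at 0, and edn3b had 0.100 RPM. The ligand gene edn3a had no matching symbol, so its level is not known. The endothelin-converting enzymes ece2b and ece1 had 8.95 and 4.07 RPM, and the downstream genes plcb3 and mef2ca 7.38 and 6.85 RPM.

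Wnt receptors and effectors were broadly read. The effector ctnnb1 (beta-catenin) had 211 RPM and its copy ctnnb2 59.2 RPM. The receptors fzd7a, fzd7b and fzd2 had 68.7, 27.2 and 20.004 RPM and the co-receptors lrp5 and lrp6 49.8 and 35.6 RPM. The feedback target axin2 had 28.7 RPM. Of the 8 ligands, wnt5b (17.0 RPM) and wnt11r (4.64 RPM) reached 1 RPM. The interval of wnt5b was 15.6 to 18.6 RPM, and the other libraries had 9.38, 22.0 and 18.6 RPM.

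The retinoic acid receptors rarga, rxrba and rarab had 34.5, 15.9 and 14.03 RPM. The degrading enzyme cyp26b1 had 10.5 RPM and the synthesising enzyme aldh1a2 4.71 RPM. Of the remaining factors, pdgfra led at 100.9 RPM, while its ligands pdgfaa and pdgfab had 0.367 and 1.102 RPM. The growth factor igf2b had 15.8 RPM and its receptor igf1ra 19.4 RPM. The chemokine cxcl12a had 11.6 RPM, and its receptors cxcr4a and cxcr4b 3.07 and 2.07 RPM.

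Over the whole class of 212 secreted factor genes, 83 (39.2%) reached 1 RPM, against 35.9% of all genes. The heparin-binding growth factor mdka had most reads, with 55.0 RPM (52.4 to 57.8) in the control and 49.5, 55.6 and 52.6 RPM in the others. The guidance factors slit3 (36.8 RPM), slit1a (36.0 RPM) and sema3bl (32.5 RPM) followed, then the matricellular gene cyr61 at 20.1 RPM and the Igf-binding igfbp5b at 18.5 RPM. Of 162 receptor genes 112 (69.1%) reached 1 RPM. After the Fgf, Notch, Pdgf, Frizzled and Patched receptors named above came the semaphorin co-receptors nrp2b (50.6 RPM) and nrp2a (36.0 RPM) and the plexins plxnb2a (41.5 RPM) and plxna3 (36.0 RPM).

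**Figure D4:**
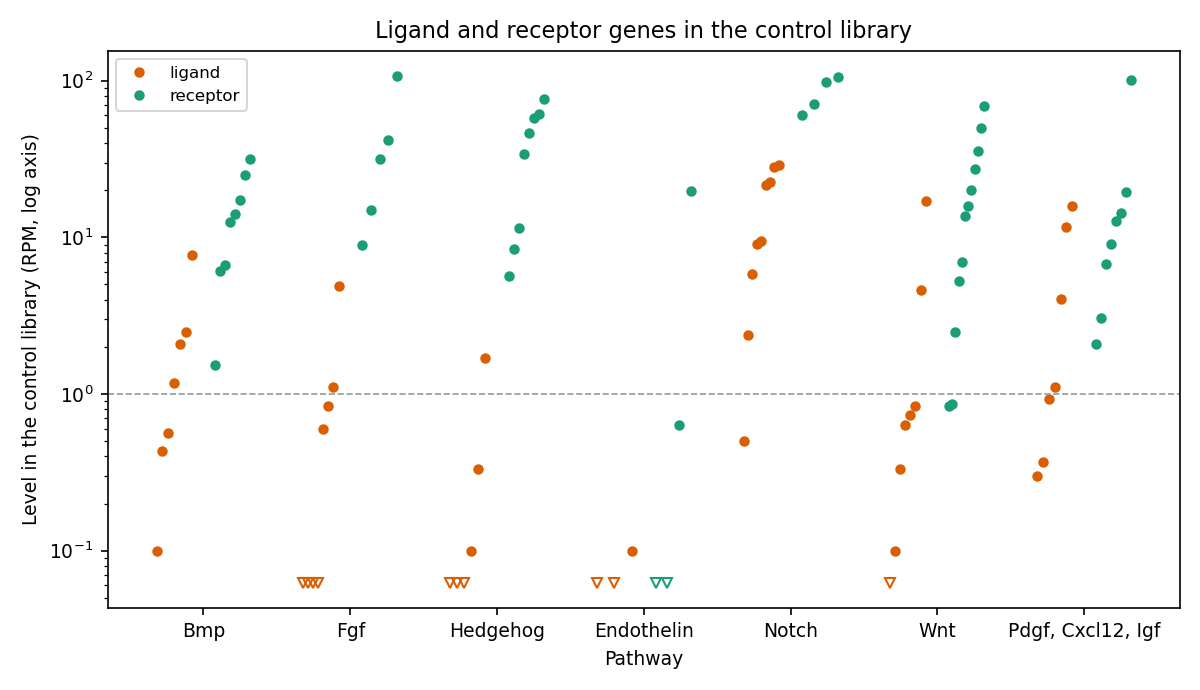
Level in the control library (vertical log axis, RPM) of ligand genes (orange) and receptor genes (green) in 7 groups of signalling genes (horizontal axis). The dashed line is 1 RPM and open triangles are genes with fewer than 3 reads, and 21 of 48 ligand rows and 52 of 59 receptor rows reach 1 RPM over these groups and the retinoic acid receptors.

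Matrix genes of cartilage and connective tissue received many reads and late bone genes few. The skeletal list summed to 1572 RPM (1511 to 1949), with 24 of 30 (80%) at 1 RPM or more, against 35.9% of all genes. The type I collagen genes col1a1a and col1a2 had 334 and 217 RPM, and the cartilage collagen genes col2a1a and col2a1b 143 and 139 RPM. The cartilage link protein hapln1a had 128 RPM (124 to 132) in the control and 106, 142 and 144 RPM in the others. Of the proteoglycan genes, acana had 2.40 RPM and acanb 0.100 RPM. The bone regulators sp7, runx2b and runx2a had 1.57, 1.57 and 0.534 RPM. The bone matrix gene spp1 and the cartilage matrix gene matn1 were listed at 0.

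In the wider matrix, 33 of 45 collagen genes (73.3%) reached 1 RPM, against 35.9% of all genes. The 45 together held 1.21% of gene reads. The fibril regulator col5a1 had 149 RPM. Of 80 other matrix genes 49 (61.25%) reached 1 RPM. They were led by tnc (299.5 RPM), hapln1a, the periostin gene postnb (94.6 RPM) and the basement membrane gene nid2a (84.0 RPM). Across the libraries tnc had 299.5, 252, 288 and 305 RPM, in the order control, UAS:Nr2f5 and mutants, and the control lay inside the range.

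The use of duplicate copies was taken from symbols that differ only in a final a or b. The origin of each pair was not checked, so the pairs may include copies older than the teleost duplication. There were 2369 such pairs without a further copy named c, and 1541 had a sum of at least 2 RPM in the control. A share of reads compares different genes and so depends on their transcript lengths, whereas the share of the same pair can be set side by side across libraries. The copies were at least 2-fold apart in 1050 pairs (68.1%), at least 4-fold apart in 706 (45.8%) and at least 10-fold apart in 445 (28.9%). They were within 1.5-fold in 313. The copy with more reads held a median of 77.4% of the reads of its pair. The a copy was higher in 823 pairs (53.4%). In 161 pairs a copy had fewer than 3 reads.

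Near the 4-fold line, ctgfa and ctgfb (10.8 and 2.67 RPM, 4.02-fold) lay just inside and tefa and tefb (12.02 and 3.04 RPM, 3.96-fold) just outside. In 123 pairs a copy had reads that were not whole within 0.02 read, and 47.2% of these were 4-fold apart, against 45.7% of the 1418 others. A copy with only a tiny fraction of a read, such as ebf1b or pdha1b, was counted as whole. The comparison therefore does not show how reads shared between copies were divided.

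Some classes of gene lay on either side of this background of 45.8%. Of 27 pairs of secreted factors, 19 (70.4%) were at least 4-fold apart, and of 15 pairs of non-collagen matrix genes 13 (86.7%). Transcription factors had 46 of 107 (43.0%) and receptors 12 of 28 (42.9%), near the background. Collagens had 1 of 6 (16.7%). The smaller classes rest on few pairs, and no difference between classes was tested.

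Pairs of secreted factors gave some of the most unequal shares. Reads of wnt5b were 17.0 RPM in the control while wnt5a was listed at 0 in all 4 libraries, at least 170-fold fewer at 3 reads. The insulin-like growth factor igf2b had 15.8 RPM and igf2a 0.935 RPM, so that igf2a held 5.59% (3.75 to 7.98), against 2.26%, 2.98% and 1.19% in the others. In igfbp5, the a copy held 3.48% in the control and 0% in each other library. The Wnt antagonist sfrp1a held 96.3% of its pair and mdka 90.8% of its pair, against 96.0%, 92.4% and 88.5% for mdka in the others.

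Matrix pairs outside the collagens included very unequal ones. The gene hapln1a held 98.4% (97.9 to 98.7) of its pair, and 99.1%, 97.4% and 98.9% in the others. The gene postnb had 94.6 RPM against 0.568 RPM for postna. For nid2a, at 84.0 RPM, the copy nid2b was listed at 0. In the collagens, col2a1a held 50.7% (49.7 to 51.8) of its pair in the control and 61.0%, 48.5% and 37.5% in the others. The share of col9a1a was 58.4% in the control and 24.0% in the library labelled UAS:Nr2f5, and 78.9% and 98.3% in the mutants. Its spread over the libraries was far wider than its counting interval of 54.5 to 62.2%.

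Patterning factors ranged from even to almost exclusive use. The gene dlx2a held 99.4% (98.5 to 99.8) of its pair in the control and 89.1%, 99.5% and 96.0% in the others. For nr2f1a the share was 61.0% (59.0 to 63.0), against 69.3%, 64.7% and 59.7%. For twist1a it was 70.2%, against 65.7%, 60.7% and 64.8%. In these 3 pairs the a copy was higher in all 4 libraries. The POU gene pou3f3a held 35.3%, against 20.8%, 32.8% and 34.3%, so that pou3f3b was higher throughout.

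In the TALE pairs the copies had opposite orders. The b copy of meis1 had more reads (meis1a 28.0% in the control, 23.2%, 33.6% and 31.5% in the others), and the a copy of meis2 (74.0%, against 61.8%, 88.5% and 87.7%). In pbx3 the a copy held 5.11%. Among inhibitors of bHLH factors, id2a held 97.3% of its pair, and alx4a held 84.1% of its pair.

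For sox9a, a master gene of cartilage, the share was 63.3% (61.2 to 65.4), against 53.2%, 78.7% and 80.9%. The mesenchymal gene prrx1a held 43.2% (40.9 to 45.5) in the control and 46.0% in the library labelled UAS:Nr2f5, and 51.4% and 56.4% in the mutants. The order of the prrx1 copies thus turned between libraries. In foxc1 the a copy held 45.4%, against 55.2%, 34.0% and 43.9%, and the order turned in the library labelled UAS:Nr2f5.

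Receptor pairs were likewise mixed. The endothelin receptor ednraa held 96.9% (95.2 to 98.1), against 100%, 94.7% and 97.1%. The receptor fgfr1a held 78.0%, against 78.0%, 71.5% and 75.2%. In the retinoid receptors, raraa held 21.5% and rarga 79.4%, and rxraa held 96.2%. The pair of fzd7 was steady, with 71.7% for the a copy and 73.9%, 72.4% and 72.4% in the others. The Notch ligand jag1a held 24.0% (21.5 to 26.6) in the control and 31.1% in the library labelled UAS:Nr2f5, and 4.73% and 8.18% in the mutants. The receptor notch1a held 46.2%, 44.1%, 60.7% and 64.9% in that order, so that the higher copy in the control was not the higher copy in the mutants.

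Among pairs with at least 20 RPM, 10 stood at the extreme with the copies ebf1b, cox8b, eif3bb, etf1a, klf6b, nid2b, pdha1b, plscr3a, rps8b and slc4a1b at less than 1 read. Their partners had 21.4 to 239 RPM. The largest was rps8a, a ribosomal protein gene, at 239 RPM. The pairs closest to even included pa2g4 (49.7% for the a copy), pik3c2 (50.3%), pafah1b1 (50.1%) and sec31 (49.9%). The copy with more reads in pik3c2 differed between the library labelled UAS:Nr2f5 (32.1%) and mutant 1 (66.4%).

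The order of copies was mostly kept between libraries. Of the 1541 pairs, 1137 (73.8%) had the same higher copy in all 4 libraries. Of the 706 pairs at least 4-fold apart in the control the number was 659 (93.3%), and of the 491 pairs under 2-fold apart it was 210 (42.8%). The share in the control differed from that in the library labelled UAS:Nr2f5 by a median of 6.98 percentage points and from the mutants by 5.03 and 6.03 points. The 2 mutants differed from each other by a median of 4.56 points, with a 90th percentile of 19.99 points. Across pairs the rank correlation (Spearman) of the control share with the others was 0.868, 0.906 and 0.874, over genes read in the same assay and with depths that differ.

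In 48 of the 1541 pairs the higher copy of the control was the lower copy in every other library. They include tbx2, whose a copy held 44.9% in the control and 61.6%, 63.8% and 56.5% in the others, and tfr1, whose a copy held 62.0% against 46.5%, 22.2% and 25.5%. The gene tbx2 encodes T-box factors and tfr1 the transferrin receptors, which take up iron. The copy tfr1a was also counted among the red blood cell markers. These summed to 501, 412, 125 and 55.9 RPM in the order control, UAS:Nr2f5 and mutants, and their part in this share was not tested. In the control the copies were 1.23-fold apart in tbx2 and 1.63-fold in tfr1. With 1 control library, whether such turns exceed the spread between libraries was not tested.

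**Figure D5:**
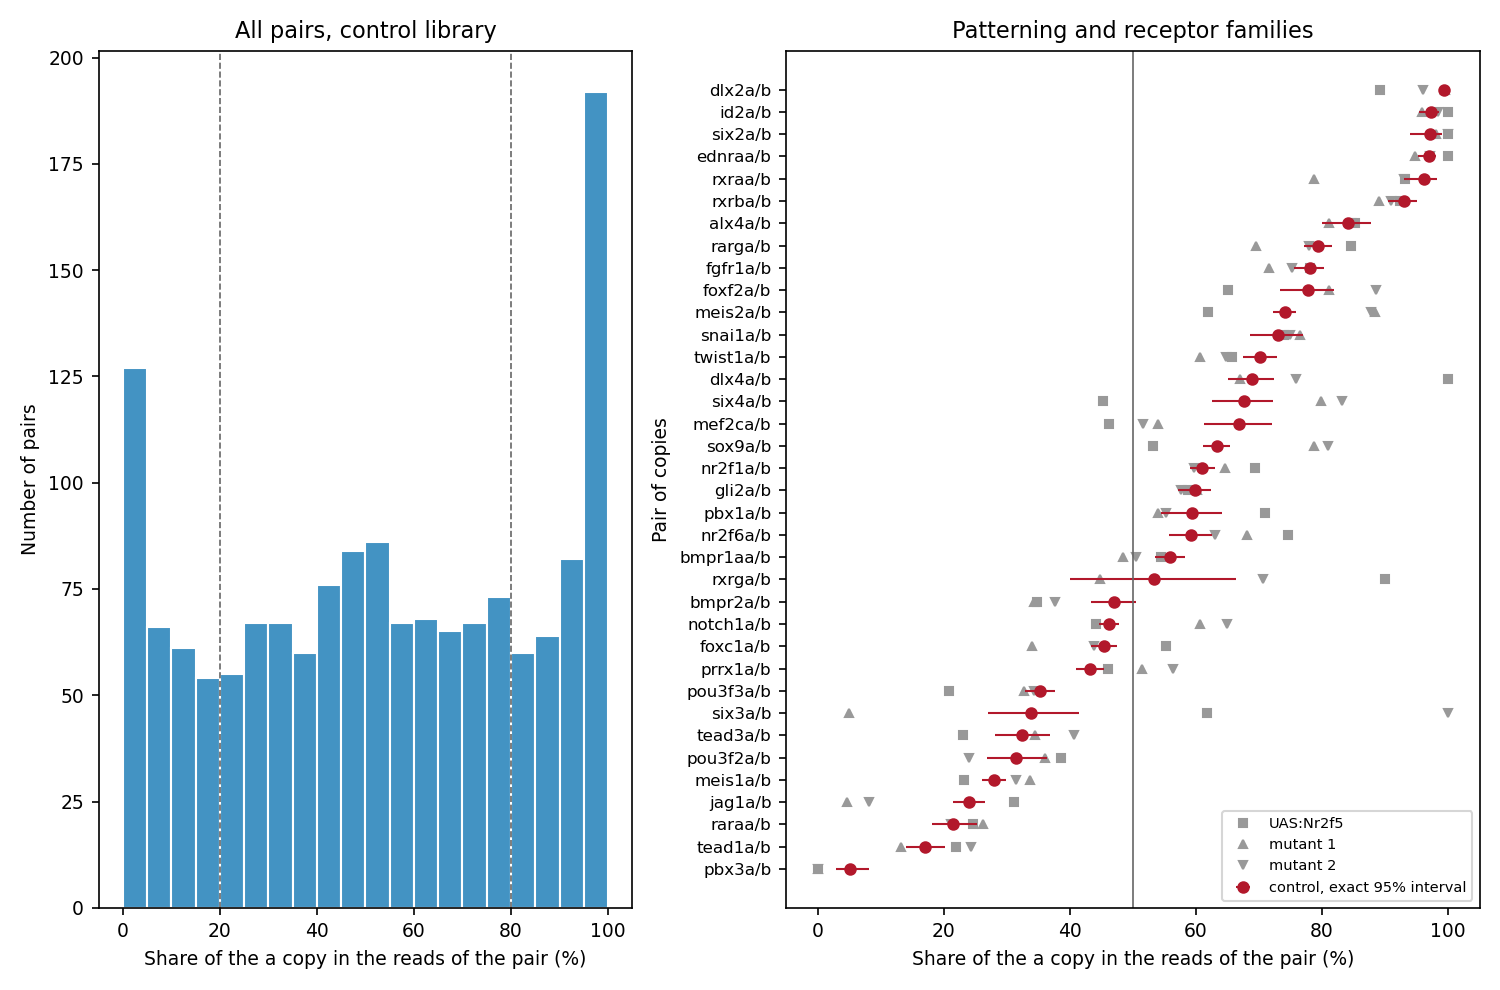
Left, number of pairs (vertical axis) by the share of the a copy in the reads of the pair in the control library (horizontal axis, percent), with dashed lines at a 4-fold difference. Right, share of the a copy (horizontal axis, percent) in patterning and receptor pairs (vertical axis), with red points for the control and its exact 95% interval and grey marks for the 3 other libraries. Pairs range from dlx2 at 99.4% to pbx3 at 5.11%.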

How the data were processed

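RNA was sequenced from 4 libraries of sorted arch cells as 75-bp paired ends from SMARTer cDNA, per the labels' protocols. TopHat2, Partek and GRCz10 were used, per the submitters' processing notes, with no versions given. The deposited values, called TPM in the file, were taken as RPM. Most values were multiples of 1 common step, as reads without division by length would be. Within 0.02 read, 88.7% of control values above 0.5 read were whole multiples. A further 781 genes had values above 0 but below 0.5 read. At a scale of 1000000 the step implies 29943413 reads, of which genes hold 14.9%.

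Implied reads were rounded to give exact 95% intervals. PCR copies of a molecule could not be told from separate molecules, and these intervals cover counting error alone. A copy under 3 reads was set to 3 reads for a fold. Analyses used Python with numpy 2.4.6, pandas 2.3.3 and scipy 1.17.1, and figures used matplotlib 3.10.9. The reading of steps and the intervals were tested on simulated whole reads only. Fractional values and PCR copies were not simulated, so that test does not cover them.

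Values per kilobase and protein identities had been planned, but transcript lengths and sequences were not used here, so values are reads. Of 472 list entries, 451 matched a symbol in the file and 15 matched through the reference tables of names. Members, lists and tests were chosen with earlier results of these data known, and symbols of other kinds of gene were taken out of the classes after they were seen. Named were the 30 genes with most reads, 25 transcription factors, 15 secreted factors and 15 receptors, leading and zero members of each list, members of signalling and arch lists, and the 10 most unequal and 5 most even pairs from 20 RPM. The pairs near 4-fold, those in opposite order and the matrix genes were picked after their values were seen. All columns of values belong to a library. Some genes are not reported here.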

Additional observations from a re-analysis of the deposited data

How the results depend on the processing

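With 1 control library no replicate could be left out. No paired analysis was possible because no group shares 2 replicate numbers with the control. The number of genes detected was 11485 at 1 RPM, 13834 at 0.5 RPM, 5277 at 5 RPM, 18032 at 3 implied reads and 20176 at any value above 0. The first 100 genes held 22.4% of gene reads, and 20.3% without the listed mitochondrial, ribosomal protein and translation factor genes. Pairs at least 4-fold apart numbered 706 (45.8%). They were 305 (40.3%) at a sum of 10 RPM or more and 452 (29.3%) with a pseudocount of 1 RPM. With no filter on the sum but both copies above 0 they were 736 (41.1%), a setting that leaves out pairs with a copy at 0. With c copies kept, an alternative chosen after seeing the data, they were 723 (45.8%). The median share of the higher copy, 77.4%, was 74.1% at a sum of 10 RPM or more. It was 75.1% with no filter on the sum but both copies above 0. A pseudocount of 1 RPM moved 28 of 82 named pair ratios by more than the spread of the mutants. It cannot change which copy is higher, so it does not test the order of copies. Without its leading gene, the epidermal sum fell from 899 to 395 RPM and the red blood sum from 501 to 306 RPM. Values per kilobase and the limit to pairs of similar proteins were not run. Depth limits low genes most: 3 reads correspond to 0.100 RPM in the control and to 0.296 RPM in the library labelled UAS:Nr2f5, the shallowest.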

Other observations

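The list of stress and immediate early genes summed to 1689 RPM in the control (1625 to 1972 in the others), and hspa8 held 52.7% of it. The endoplasmic reticulum chaperone hspa5 had 133 RPM in the control and 132, 137 and 140.2 RPM in the library labelled UAS:Nr2f5 and the mutants. The stress factor atf3 had 18.5 RPM, and the others had 24.9, 13.4 and 26.1 RPM.

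Shares of some glycolytic copies spanned a wide range over the libraries. The aldolase copy aldoaa held 58.3% of its pair in the control and 39.6% in the library labelled UAS:Nr2f5, and 96.8% and 97.9% in the mutants. The pyruvate kinase copy pkma held 73.0% in the control and 22.6% in the library labelled UAS:Nr2f5, and 99.1% and 100% in the mutants. Muscle markers summed to 2000.3, 6709, 62.2 and 90.5 RPM in the same order, and their part in these shares was not tested. The lactate dehydrogenase copy ldhba held 98.9%, 97.7%, 99.2% and 100% in that order.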
